A study of Mus musculus with 8 samples.

Results

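Enpp2-high cells are the SN4741 cells at 39 °C that held 3 or more UMIs of Enpp2. A UMI, or unique molecular identifier, stands for 1 captured transcript. SN4741 is a mouse neural precursor line, reported to be clonal and to come from embryonic substantia nigra. It is wild type by its label and immortalised with a heat-sensitive viral T antigen that loses activity at 39 °C. Its chromosome set is abnormal and varies between cells, which limits it as a model. Single-cell RNA-seq covered 4 libraries kept at 37 °C in 10% serum and 4 libraries that were moved, 24 hours after passage, to 39 °C and 0.5% serum for 48 hours, so temperature and serum cannot be told apart. Cells with at most 15% mitochondrial UMIs, 200 to 6000 detected genes and at least 5000 UMIs were used. These limits kept 16015 of 19125 deposited cells, 8133 of them at 39 °C, and 756 of the 8133 were Enpp2-high. The cells kept in a 39 °C library summed to 17055269 to 27255882 UMIs, and 2 libraries shared at most 5 cell barcodes. The labels do not say whether libraries came from separate cultures. The p-values concern how the difference between cells with and without Enpp2 UMIs varied over these libraries, a spread that may be technical. For gene levels, the test also pools the spread over genes. The Enpp2 count chose these cells, so their Enpp2 level is a description, and Enpp2 was left out of every test.

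Enpp2 encodes autotaxin, a secreted lysophospholipase D that makes the signalling lipid lysophosphatidic acid (LPA) from lysophosphatidylcholine. LPA acts on G protein-coupled receptors that drive cytoskeletal contraction, migration and survival, and lipid phosphate phosphatases break it down. In the brain, Enpp2 is known from oligodendrocytes and choroid plexus epithelium, and elsewhere from endothelium, adipocytes and fibroblasts. The gene (ENSMUSG00000022425) lies on chromosome 15 at 54838901 to 54952892 of GRCm38.

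Enpp2-high cells were present in every 39 °C library. Replicate 1 held 161 of them (17.0% of its cells, exact 95% binomial interval 14.6 to 19.5%), and replicate 3 held 265 (11.4%, 10.2 to 12.8%). Replicate 2 held 179 (7.51%, 6.48 to 8.64%) and replicate 4 held 151 (6.08%, 5.17 to 7.09%). The intervals cover counting error only. The mean share was 10.5% ± 4.87 (SD, n = 4 libraries), against 1.16% ± 0.405 (n = 4) at 37 °C, where 87 of 7882 cells reached 3 UMIs. Replicate 1 was also the deepest, with a median of 16881 UMIs in its cells without Enpp2 against 8107 to 10754.5 in the others. After every cell was thinned to 5000 UMIs, the share with 2 or more Enpp2 UMIs was 8.20% ± 1.32 at 39 °C and 0.988% ± 0.260 at 37 °C, and replicate 1 lay inside the range of the others.

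**Figure D1:**
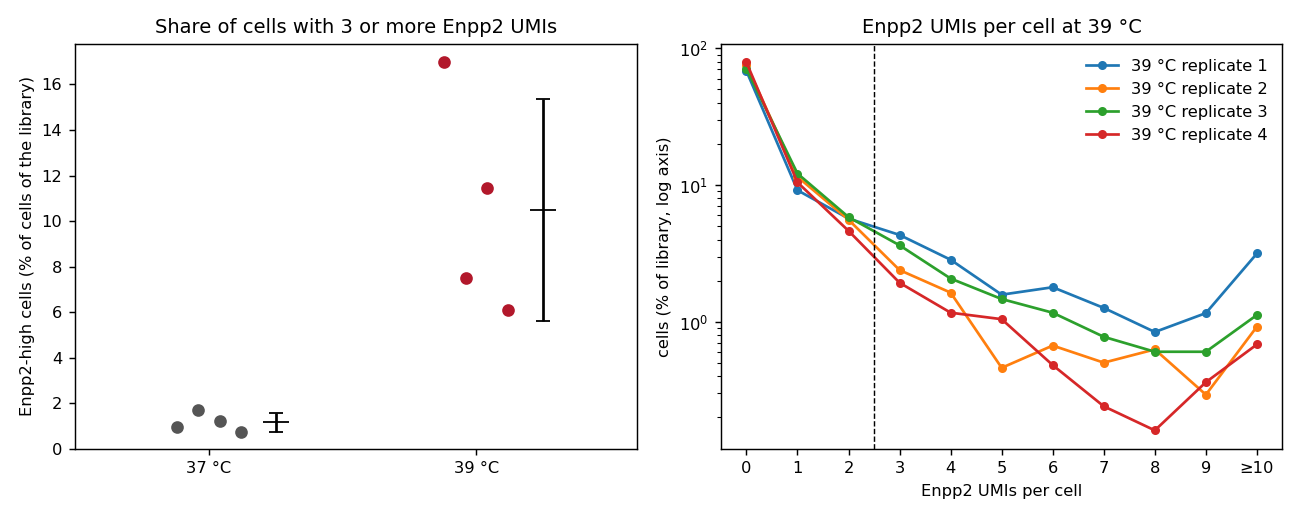
Left, percentage of cells with 3 or more Enpp2 UMIs in each library (points) with the mean and SD of 4 libraries beside them. Right, percentage of the cells of each 39 °C library at each number of Enpp2 UMIs on a log axis, with the dashed line marking the threshold. The 39 °C libraries lie between 6.08 and 17.0%, all above the 37 °C libraries, and the right panel shows no gap at the threshold.

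The 756 cells carried 71.7% of the 6277 Enpp2 UMIs found at 39 °C, while 73.3% ± 4.79 of the cells of a 39 °C library had none. In the summed counts of the Enpp2-high cells, Enpp2 stood at 399, 571, 478 and 626 CPM in replicates 1 to 4. CPM is a count scaled to the size of its library, as edgeR gives it, and is the unit of every gene level below. Just inside the threshold were 230 cells with 3 UMIs, and just outside it 437 cells with 2, with library medians of total UMIs averaging 11004 and 11031. At the upper end, 95 cells held 10 or more. The variance of the thinned Enpp2 count was 2.95 to 3.53 times its mean in the 39 °C libraries. Genes with a similar mean had a median ratio of 1.05 to 1.07 there, and 2 to 4 of the 952 to 1096 such genes in a library exceeded Enpp2. Enpp2 transcripts were thus unevenly spread over the cells, without separate classes at the threshold.

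Markers of oligodendrocytes, choroid plexus, endothelium and adipocytes had no UMI for most genes of each list, and fibroblast markers are given with the matrix genes. Of 18 oligodendrocyte lineage genes, 13 had no UMI in the Enpp2-high cells, among them Olig1, Olig2, Sox10 and Mog, and the summed level of the list was 35.5 to 52.8 CPM in Enpp2-high and 37.9 to 46.5 in matched cells. Of 12 choroid plexus genes, 10 had no UMI, among them Ttr, Folr1 and Otx2, and the sum was 4.46 to 7.44 against 6.85 to 11.9 CPM. No tested gene of these 2 lists was called (5 and 2 genes). Over all genes the test described below called 19.5%, with 8.29% higher and 11.2% lower. The lists of this paragraph had 2 to 5 tested genes, too few to set 0 or 1 call apart from that share. The endothelial list had 5 of 8 genes at 0 (Cdh5, Kdr, Emcn, Cldn5 and Esam) and the adipocyte list 5 of 8 (Adipoq, Fabp4, Lpl, Cd36 and Plin1). Sums were 18.6 to 32.97 against 17.9 to 20.8 CPM for the first and 27.9 to 33.4 against 20.4 to 39.1 for the second; 0 of 2 tested endothelial genes were called, and 1 of 3 tested adipocyte genes, Cebpa, fell (0.399 against 2.71 CPM), a call lost without replicate 1 (adjusted p = 0.388) or 3 (0.0905). Cebpa had no UMI in 3 of the 4 Enpp2-high libraries and was lower in 3 of 4 libraries. Its fitted log2 fold change of -2.83 (-1.75 without replicate 1, -6.02 without replicate 2) depends on the prior count and is no bound. Of 5 microglial genes 2 could be tested, and 1, Tmem119, rose, with list sums of 6.82 to 9.66 against 2.23 to 4.89 CPM. Of 6 astrocyte genes, Gfap and Aqp4 were at 0, and 1 of 3 tested, Slc1a3, rose (0.93), a call lost without replicate 1 (0.61, adjusted p = 0.0953), with sums of 15.4 to 18.5 against 9.24 to 14.3 CPM. The part that such cells play in the results was not tested. No cell type name is given to the Enpp2-high cells, which are SN4741 cells with a high Enpp2 count.

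Each Enpp2-high cell was compared with a cell of the same library that had 0 Enpp2 UMIs and nearly the same total. The pairs were even in depth: the median UMIs of the Enpp2-high cells were 17171, 9014, 9707 and 8043 in replicates 1 to 4, and those of their partners were 17030, 8990, 9701 and 8033. The number of genes detected was 3428 against 3420 on average. Malat1, a nuclear long noncoding RNA, took 6.47% ± 0.866 of UMIs in Enpp2-high cells against 4.75% ± 0.700 (n = 4 libraries, higher in 4 of 4). Their mitochondrial share was 8.68% ± 0.402 against 8.29% ± 0.388, also higher in 4 of 4, and the ribosomal protein share was 17.2% ± 0.700 against 18.0% ± 0.783, lower in 4 of 4. The exact two-sided permutation test over 4 paired libraries gave p = 0.13 for each of these shares, the smallest value it allows (adjusted p = 0.208 over 5 measures). A design of 4 pairs cannot pass a threshold of 0.05.

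Cells were assigned a phase from S and G2/M genes, with G1, the gap before DNA synthesis, as the remainder. G1 cells made up 95.03, 93.3, 94.0 and 98.0% of the Enpp2-high cells in replicates 1 to 4, and 82.6, 81.6, 81.9 and 77.5% of their partners. The groups did not overlap, and the mean difference was 14.2 percentage points ± 4.24. S-phase cells made up 4.25% ± 1.97 against 12.98% ± 2.92, and G2/M cells 0.679% ± 0.718 against 6.13% ± 1.21. Replicate 1 had no G2/M cell among 161 Enpp2-high cells, which allows a share of up to 1.86%. Each phase differed in the same direction in 4 of 4 libraries, with an exact permutation p of 0.13, the smallest it allows.

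**Figure D2:**
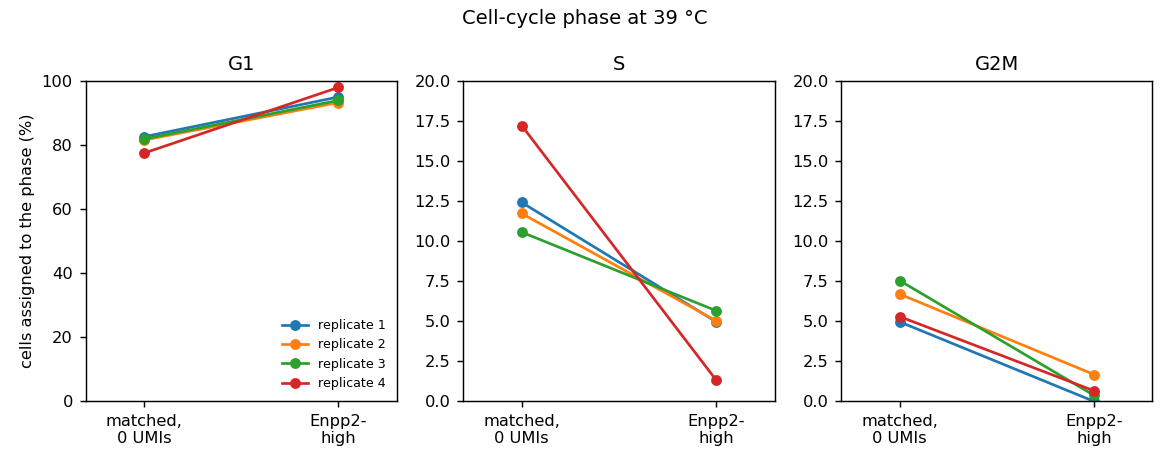
Percentage of cells assigned to G1, S and G2/M in matched cells with 0 Enpp2 UMIs and in Enpp2-high cells, with 1 line per 39 °C library. In every library the line rises for G1 and falls for S and G2/M; the y axis runs to 100 for G1 and to 20 for the others.

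Gene levels were tested on counts summed per library and class with edgeR's quasi-likelihood test, the library as a block, and a call at an adjusted p under 0.05. Each SE given with a log2 fold change was derived from the statistic of this test. Such an SE pools the spread over genes and can lie below the spread of the 4 library differences. For Slurp1, read below, it was 0.23, against 0.79 with DESeq2, while the library differences ran from 0.05 to 3.41. The test covered 12565 genes and called 2454 of them (19.5%), with 1042 rises (8.29%) and 1412 falls (11.2%). Over the 4 libraries the classes did not overlap for 953 genes that were higher (7.58%) and 1167 that were lower (9.29%), 16.9% in all. With an adjusted p under 0.01 and a log2 size over 1.5, 57 genes rose (0.454%) and 83 fell (0.661%), 1.11% in all. DESeq2 called 805 genes (315 higher, 490 lower), and edgeR called 1142 after cells were thinned to 5000 UMIs. The median log2 fold change of all genes was 0.006, and that of the called genes was 0.47 in size for rises and 0.45 for falls, so most calls were small. A change of more than 2-fold was seen in 161 rises and 225 falls. Leaving out replicate 1 left 1284 calls and leaving out replicate 3 left 1464. Where partners were also matched on phase, 869 of the 1042 rises and 1172 of the 1412 falls were called again.

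The 12 largest rises are taken first. Nov, a matricellular protein of the CCN family, was at 26.2, 20.7, 29.8 and 37.2 CPM in the Enpp2-high cells of replicates 1 to 4 and at 3.91, 4.30, 2.28 and 6.68 CPM in their partners. The groups lay far apart (log2 fold change 2.84, SE 0.21, adjusted p = 3.1e-17). Il33, an alarmin cytokine, was at 65.7, 80.3, 72.0 and 71.4 CPM against 8.53, 19.9, 20.2 and 8.16 (2.29, SE 0.14, adjusted p = 4.7e-22). Il33 was separate between the classes in every library. Pla2g7, the secreted phospholipase that inactivates platelet-activating factor, was at 98.7, 104.2, 103.8 and 113.7 CPM against 21.7, 25.8, 22.5 and 25.2 (2.15, SE 0.10, adjusted p = 6.4e-27). Its 4 values in each class varied little.

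Igfbp2, which binds insulin-like growth factors, had the smallest p-value of all genes tested and stood at 299, 329, 292 and 264 CPM against 109, 82.1, 72.7 and 92.0 (log2 fold change 1.75, SE 0.07, adjusted p = 3.3e-30). Hopx, a small homeodomain protein that does not bind DNA, was at 152, 190, 215 and 193 CPM against 41.9, 62.8, 73.0 and 49.0 (1.70, SE 0.08). Mgp, matrix Gla protein, an inhibitor of calcification, was at 146, 281, 210 and 207 CPM against 58.6, 48.3, 52.8 and 57.9 (1.90, SE 0.09). None of these ranges overlapped. Adh7, an alcohol dehydrogenase that oxidises retinol, rose by 1.6 (SE 0.08), and Fjx1, a secreted relative of Drosophila four-jointed, by 1.67 (SE 0.17), both without overlap. Gsta4, a glutathione transferase for lipid peroxidation products, rose by 1.55 (SE 0.20), but its matched cells in replicate 4 reached 33.4 CPM, inside the Enpp2-high range of 23.4 to 36.4. The call of Slurp1, a secreted Ly6 family protein, depended on replicate 2, at 146 CPM against 12.9. Without that library the log2 fold change of 1.87 dropped to 0.62 (adjusted p = 0.126). Replicate 1 was also higher, at 11.8 CPM against 1.42, while replicates 3 and 4 stood at 16.2 against 15.7 and 25.3 against 18.6. Wif1 and Axin2, the other genes among the 12 largest rises, belong to the Wnt group below.

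**Figure D3:**
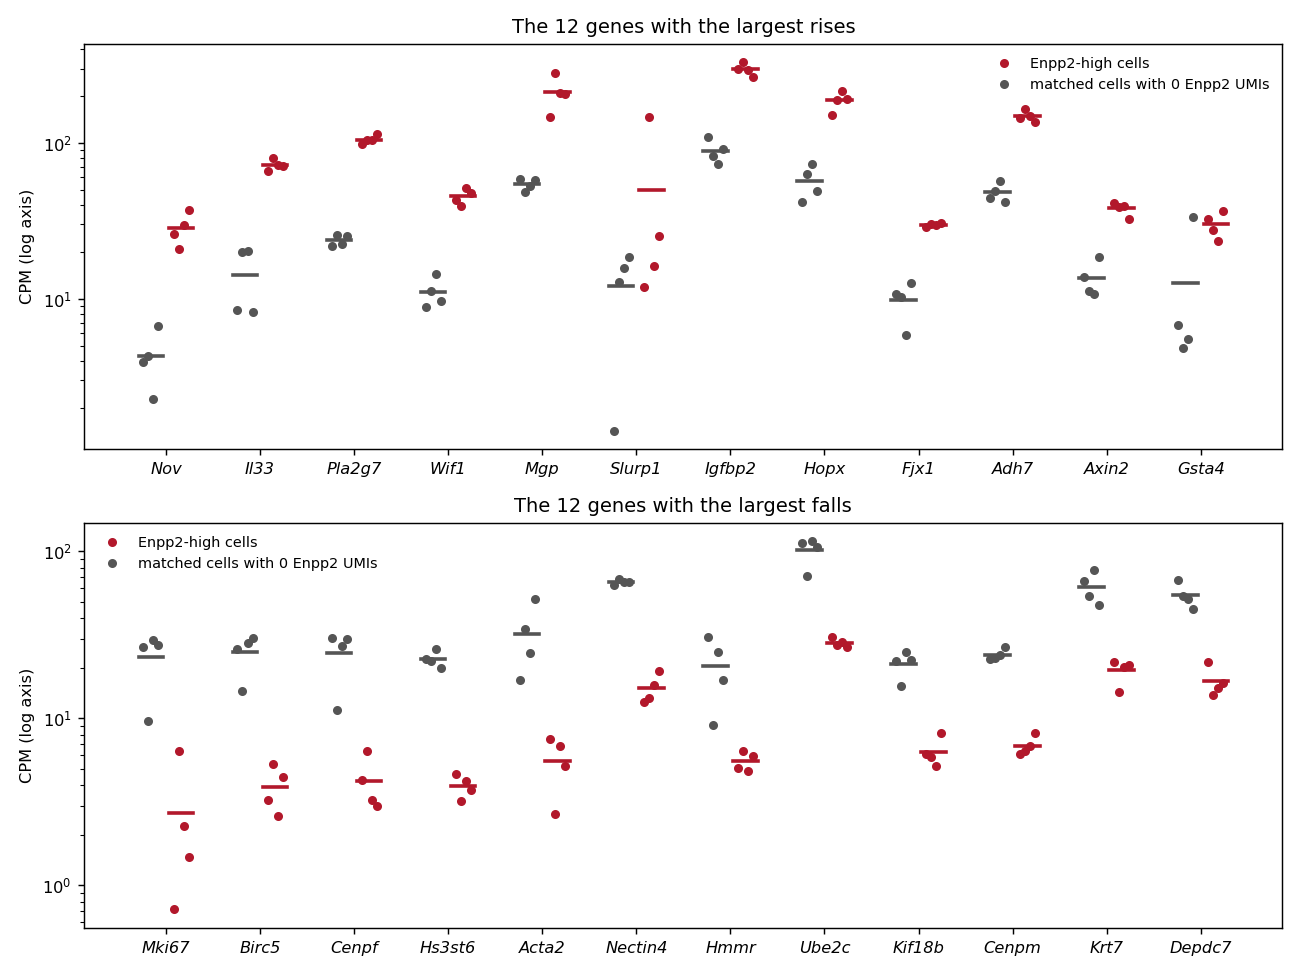
CPM on a log axis for the 12 genes with the largest rises (top) and falls (bottom) in the summed counts of Enpp2-high cells and of matched cells with 0 Enpp2 UMIs. Points are the 4 libraries at 39 °C and bars their mean. The groups are separate for 10 of 12 rises, all but Slurp1 and Gsta4, and for 12 of 12 falls. These genes were picked by call, sign and size in the same sums, and 16.9% of all genes are separate.

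Genes of the Wnt pathway's feedback loop were mostly higher. The list holds targets and feedback regulators that canonical Wnt signalling is known to induce. Of its 17 genes 13 could be tested, and Sp5 and Dkk1 had no UMI in the Enpp2-high cells. Of the 13 tested, 9 rose and 0 fell, beside 8.29 and 11.2% of all genes. Their median log2 fold change was 0.96. Wif1, a secreted inhibitor that binds Wnt ligands, was at 42.7, 39.3, 51.6 and 47.6 CPM against 8.88, 11.3, 14.3 and 9.65 (2.01, SE 0.15, adjusted p = 5.2e-18). Axin2, the scaffold of the beta-catenin destruction complex, was at 41.3, 38.8, 39.6 and 32.7 CPM against 13.9, 11.3, 10.8 and 18.6 (1.58, SE 0.15, adjusted p = 3.4e-13). Both genes were separate in all 4 libraries. Notum, an enzyme that inactivates Wnt ligands, rose by 1.11 (SE 0.09), and Lgr5, an R-spondin receptor, by 0.91 (SE 0.08). Nkd2, a feedback inhibitor of Dishevelled, rose by 1.61 (SE 0.37) from a mean of 2.08 CPM, with no UMI in the matched cells of replicate 2. The transcription factors Tcf7 and Tcf7l2 rose by 0.64 (SE 0.15) and 0.34 (SE 0.08), and the secreted antagonist Sfrp1 by 0.34 (SE 0.10). Rnf43, a ubiquitin ligase that removes Wnt receptors, was at 1.06 to 2.97 CPM against 0 to 0.652, with no UMI in the matched cells of replicates 1 and 4. Its log2 fold change of 2.40 (SE 0.83) lost its call without replicate 1 (1.76, adjusted p = 0.270), replicate 3 (3.28, 0.0632) or replicate 4 (2.08, 0.110). The call of Tcf7 was lost without replicate 1 (log2 fold change 0.43), and that of Sfrp1 without replicate 2 (0.29) or replicate 3 (0.17). Without replicate 1, Sfrp1 stood at 0.54. Notum, Lgr5, Tcf7, Tcf7l2 and Sfrp1 were named after their values were seen, to complete the list.

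BMP signalling is known to induce the Id genes, inhibitors of basic helix-loop-helix factors. In the list of Id and BMP response genes 7 of 12 tested rose and 0 fell, beside 8.29 and 11.2% of all genes. The median was 0.39. Id3 was at 802, 831, 806 and 979 CPM against 527, 491, 490 and 492 (0.75, SE 0.04, adjusted p = 1.45e-22), without overlap. The ligand Bmp2 was at 35.9, 36.2, 46.4 and 43.1 CPM against 17.4, 16.1, 13.04 and 14.1 (1.41, SE 0.14, adjusted p = 3.0e-12), again without overlap. Id1 rose by 0.43 (SE 0.04) and the ligand Bmp4 by 0.36 (SE 0.06), both named after their values were seen. The smaller rises of Id4 (0.51, SE 0.15), of the BMP antagonist Grem1 (0.57, SE 0.20) and of Id2 (0.18, SE 0.07) depended on single libraries. Without replicate 1, Id4 stood at 0.43 (adjusted p = 0.166), Grem1 at 0.59 (0.207) and Id2 at 0.17 (0.277). The Grem1 call was also lost without replicate 3 (0.35) or 4 (0.51), and that of Id2 without replicate 2 (0.13) or 4 (0.15), while Id2 stood at 0.29 without replicate 3.

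Lists of LPA receptors, of LPA breakdown and uptake, and of LPA and lysolipid metabolism were read. In them 1 of 4, 2 of 10 and 3 of 16 tested genes were called, near the 19.5% of all genes. Of 6 LPA receptor genes 4 could be tested, and Lpar3 and Lpar5 had no UMI in the Enpp2-high cells. Lpar1 was at 15.8, 16.5, 16.9 and 20.8 CPM against 9.24, 13.96, 12.7 and 11.9, without overlap, and rose by 0.53 (SE 0.18, adjusted p = 0.0287). Its call was lost without replicate 1 (0.45, adjusted p = 0.186), replicate 3 (0.60, 0.086) or replicate 4 (0.48, 0.096), and also where partners were matched on phase (0.45, adjusted p = 0.063). Lpar2 (7.93 ± 1.596 against 6.04 ± 1.38 CPM), Lpar4 (2.87 ± 0.639 against 1.43 ± 1.15) and Lpar6 (11.6 ± 3.31 against 11.3 ± 4.13) overlapped between the classes and were not called, with log2 fold changes of 0.38 (SE 0.26), 0.93 (SE 0.54) and -0.01 (SE 0.20). Lpar4 stood at 0.58 without replicate 1, 0.59 without replicate 2 and 1.77 without replicate 3, and was called in none of these.

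Of 10 tested genes of LPA breakdown and uptake 2 rose and 0 fell. Acp6, a lysophosphatidic acid phosphatase, rose by 0.71 (SE 0.19, adjusted p = 0.0030) and Plpp1, a lipid phosphate phosphatase, by 0.41 (SE 0.13, adjusted p = 0.018), with overlapping library values for both. Plpp1 was higher in 2 of 4 libraries and lower in 2, and lost its call without depth matching (0.18, adjusted p = 0.129). Acp6 lost its call without replicate 1 (0.49) or 3 (0.63), and Plpp1 without replicate 2 (0.25) or 3 (0.32), while Plpp1 stood at 0.62 without replicate 1. The list of LPA and lysolipid metabolism had 16 tested genes, among them Agpat genes, which use up LPA rather than supply it. In this list Pla2g7 rose and 2 acyltransferases that turn LPA into phosphatidic acid fell. Agpat5 was at 44.1, 48.9, 52.9 and 35.7 CPM against 76.0, 71.9, 80.5 and 53.4 (-0.65, SE 0.09, adjusted p = 1.2e-07). Agpat4 was at 95.2 to 121 against 128 to 134 CPM (-0.25, SE 0.07), a call lost without replicate 2 (-0.23) or 3 (-0.25). The other 3, 8 and 13 tested genes of these lists were not called. Of the other ENPP family members 2 could be tested and 0 were called.

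Cell-cycle genes made up most of the largest falls, beside the lower shares of S and G2/M cells. Of 42 genes of the S-phase list 25 fell and 0 rose (median -0.56). Of 52 genes of the G2/M list 34 fell and 1 rose (median -0.91). These lists assigned the phases. Over all genes 11.2% fell and 8.29% rose. Mki67, a coat protein of mitotic chromosomes, was at 0.718, 6.38, 2.27 and 1.49 CPM against 26.6, 9.66, 29.3 and 27.5 (-3.22, SE 0.29, adjusted p = 2.8e-14). Ube2c, the ubiquitin-conjugating partner of the anaphase-promoting complex, was at 30.5, 27.7, 28.5 and 26.8 CPM against 112, 70.9, 115 and 107 (-1.85, SE 0.10, adjusted p = 7.5e-24). In both genes replicate 2 had the lowest level among the matched cells, and the classes stayed apart. Birc5 (survivin), Cenpf and Cenpm of the kinetochore, the spindle protein Hmmr and the kinesin Kif18b fell by 1.82 to 2.76 on the log2 scale, and Pclaf, a partner of the replication clamp, by 2.40. Where partners had the same assigned phase, the falls shrank: Mki67 stood at -1.41 (adjusted p = 0.0016), Ube2c at -1.06 (3.1e-13) and Kif18b at -1.65 (2.8e-10), while Cenpf at -0.46 (0.383) and Hmmr at -0.55 (0.185) were no longer called. In that fit 3 of the 42 S-phase and 10 of the 52 G2/M genes were called lower (medians -0.13 and -0.14). Over all genes it called 1372 lower, close to the 1412 (11.2%) of the main test. The S-phase calls were thus no more frequent than those over all genes.

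The largest falls also held genes outside the cell cycle lists. Nectin4, a cell adhesion molecule, was at 12.6, 13.3, 15.9 and 19.3 CPM against 63.2, 68.7, 65.5 and 65.3 (-2.14, SE 0.13, adjusted p = 5.1e-22). Acta2, the smooth-muscle actin of contractile cells, was at 7.54, 2.66, 6.81 and 5.20 CPM against 17.1, 34.4, 24.8 and 52.0 (-2.25, SE 0.21, adjusted p = 2.6e-13). Hs3st6, a heparan sulfate sulfotransferase, was at 4.67, 3.19, 4.22 and 3.72 CPM against 22.7, 22.0, 26.1 and 20.04 (-2.50, SE 0.22, adjusted p = 7.2e-15). All were separate in all 4 libraries, and so were the keratin Krt7 (-1.71, SE 0.12) and Depdc7 (-1.71, SE 0.13). Matching on phase moved these 5 genes by little: they stood at -2.13, -2.26, -2.53, -1.67 and -1.67 in the same order. Man2b1, a lysosomal mannosidase named after its values were seen, was at 85.1 ± 11.5 against 221 ± 33.3 CPM (-1.37, SE 0.07, adjusted p = 5.8e-26).

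Genes that serum and SRF are known to drive went both ways: 5 of 21 rose and 7 fell, beside 8.29 and 11.2% of all genes. Their median was -0.14. Beside Acta2, the muscle ankyrin repeat protein Ankrd1 fell by 0.97 on the log2 scale (SE 0.11), while the matricellular Thbs1, named after its values were seen, rose by 0.62 (SE 0.08). Matrix and adhesion genes also split, with 6 of 30 higher, 9 lower and a median of -0.02. Col6a1, a chain of collagen VI, was at 22.6, 20.2, 24.3 and 24.5 CPM against 9.95, 10.7, 9.13 and 11.1 (1.19, SE 0.18, adjusted p = 1.7e-07), and fibronectin (Fn1, named after its values were seen) rose by 0.72 (SE 0.05). The proteoglycan Vcan fell by 0.75 on the log2 scale (SE 0.05) and the matrix protein Fbln2 by 1.07 (SE 0.10). Of 6 tested fibroblast and mural markers 3 rose and 0 fell, among them Col1a1 (0.43, SE 0.04) and Col1a2 (0.40, SE 0.06). The list summed to 953 to 1140 CPM against 699 to 867, with Lum, Thy1 and Rgs5 at 0. The part that other cell types play here was not tested.

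Of 26 targets of p53, a tumour suppressor that T antigen binds, 14 fell (11.2% of all genes fell) and 2 rose (8.29%). The median was -0.14, and the rises were Gadd45a and, by 0.10, Cdkn1a. The falls were small, from -0.13 to -0.65 on the log2 scale. Pmaip1, an initiator of apoptosis, was at 25.5, 24.5, 24.3 and 26.0 CPM against 40.1, 35.4, 44.3 and 31.9, without overlap (-0.65, SE 0.13, adjusted p = 4.9e-05). The death receptor Tnfrsf10b fell by 0.44 on the log2 scale (SE 0.11), a call lost without replicate 3 (-0.35, adjusted p = 0.107). Gadd45a, a growth-arrest gene, rose by 0.64 (SE 0.13), a call lost without replicate 1 (0.48, adjusted p = 0.052).

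Of 18 tested genes of the secreted and senescence-linked list 7 rose and 3 fell, beside 8.29 and 11.2% of all genes. Their median was 0.31. Beside Il33 and Igfbp2, Igfbp4 was at 16.9, 12.8, 9.08 and 15.6 CPM against 2.84, 3.76, 2.93 and 5.20 (1.93, SE 0.27, adjusted p = 3.9e-08). Heat-shock genes had 4 of 14 higher and 3 lower. The small chaperone Hspb1 was at 38.4, 56.4, 48.3 and 45.3 CPM against 20.3, 19.9, 25.1 and 19.3 (1.10, SE 0.13), and the inducible Hspa1b rose by 0.89 (SE 0.13). The co-chaperone Dnajb1 was at 72.7 to 83.0 against 111 to 133 CPM (-0.62, SE 0.08), and the mitochondrial Hspe1 at 432 to 555 against 555 to 628 CPM (-0.24, SE 0.04). Chaperones were called in both directions.

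In the cholesterol synthesis list 3 of 23 genes rose and 2 fell, near the shares of all genes (8.29 and 11.2%). Its largest change was that of Cyp51, the lanosterol demethylase, at 113, 93.6, 89.8 and 84.7 CPM against 48.0, 37.0, 38.2 and 33.4 (1.27, SE 0.09, adjusted p = 2.2e-18). Of 3 tested progenitor genes the Notch target Hes1 rose (0.30, SE 0.06) and the filament gene Nes fell (-0.25, SE 0.08, adjusted p = 0.0142), and Sox1, Pax6, Fabp7, Hes5 and Prom1 were at 0. The call of Nes was lost with partners of the same phase (-0.18, adjusted p = 0.0956) and without replicate 1 (-0.16) or 2 (-0.25). Of 6 tested pan-neuronal genes 2 rose (Stmn2 and Map2) and 1 fell (Tubb3). Map2 (0.39, SE 0.13) lost its call without replicate 1 (0.49), 2 (0.28) or 3 (0.41). Tubb3 (-0.75, SE 0.28, adjusted p = 0.0493) lost it without replicate 2 (-0.59) or 3 (-0.49) and with partners of the same phase (-0.42, adjusted p = 0.379). Stmn2, a regulator of microtubules in growing axons, was at 53.8, 78.2, 63.6 and 81.0 CPM against 29.5, 65.5, 47.9 and 46.0 (0.54, SE 0.10), with overlap. Of 4 tested immature neuron genes 3 fell, of which the RNA-binding protein Celf5 was at 129 to 141 against 162 to 210 CPM (-0.46, SE 0.07, adjusted p = 7.4e-08). Of 13 dopaminergic markers, Th, Slc6a3, Pitx3 and 4 others had no UMI in the Enpp2-high cells. Aldh1a1 was called, but 62 of its 66 UMIs came from replicate 1, against 0 in the matched cells. With a floor of 3 counts over the group, the summed cells stood at least 22.0-fold above these partners. That ratio is no lower bound against other cells with 0 Enpp2 UMIs. Those matched to cells with 1 or 2 Enpp2 UMIs averaged 0.900 CPM of Aldh1a1, against 0.633 in the latter (log2 fold change -0.45, adjusted p = 0.763).

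Lists of the largest rises and falls with temperature in these libraries were read side by side. They were chosen on the same samples and hold cell-cycle genes among the falls. Of 12 temperature risers 3 were higher and 5 lower in Enpp2-high cells, beside 8.29 and 11.2% of all genes. Irx3, a homeobox factor, was at 342, 280, 251 and 309 CPM against 215, 193, 187 and 187 (0.58, SE 0.06, adjusted p = 3.6e-13). The mitochondrial creatine kinase Ckmt1 was at 66.7, 69.7, 61.3 and 65.4 CPM against 110, 110, 110 and 90.5 (-0.71, SE 0.08, adjusted p = 1.8e-10). Of 16 tested temperature fallers 11 were lower and 1 was higher. With partners of the same phase, 3 of the fallers were lower and 1 was higher.

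Genes beside Enpp2 on chromosome 15 were also read (GRCm38 coordinates). Within 1000 kb of Enpp2 8 genes were tested, of which 3 rose and 1 fell, with a median of 0.30. The other 502 tested genes of the chromosome had 49 rises, 65 falls and a median of 0.008. Over all genes 8.29% rose and 11.2% fell. Nov (54745702 to 54754039) lies 84.9 kb below Enpp2. Deptor, an inhibitor of mTOR (55112317 to 55259271), lies 159 kb above it, and was at 13.3, 11.2, 15.6 and 15.6 CPM against 2.84, 3.22, 5.87 and 5.94 (1.66, SE 0.25, adjusted p = 2.4e-07), without overlap. Taf2, a subunit of the general factor TFIID (55015131 to 55072152), 62.2 kb above Enpp2, rose by 0.59 (SE 0.12, adjusted p = 1.0e-04). Samd12 (53453810 to 53902537) fell by 0.26 on the log2 scale (SE 0.07), a call lost without replicate 1 (-0.21) or 2 (-0.20). Chromosome 15 as a whole gave 4.76% ± 0.137 of UMIs in Enpp2-high and 4.90% ± 0.066 in matched cells, higher in 1 of 4 libraries and lower in 3.

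Cells with 1 or 2 Enpp2 UMIs, which the rule did not use, were set against depth-matched cells with 0 that had not served as partners. Of 13071 genes 2007 were called (15.4%), 818 higher (6.26%) and 1189 lower (9.10%). Leaving out replicate 2 left 858 of them, replicate 3 left 882 and replicate 4 left 1265. Of the 12 largest rises 11 were called higher in these cells, all but Slurp1 (-0.05), and 12 of the 12 largest falls were called lower. Nov rose by 1.96, Il33 by 1.79, Pla2g7 by 1.21, Wif1 by 1.16 and Hopx by 1.08, each below its value in the Enpp2-high cells, a difference that was not tested. Nectin4 stood at -1.38, Acta2 at -1.26 and Mki67 at -1.85. In the Wnt list 6 genes were higher and 1 lower, and in the Id and BMP list 6 were higher and 0 lower. The 2 comparisons share libraries but no cells.

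The levels of these genes were also read by the number of Enpp2 UMIs per cell, over all 39 °C cells and without depth matching. Mean Nov was 2.80 ± 0.297 CPM at 0 UMIs, 7.19 ± 0.614 at 1, 14.6 ± 5.96 at 2, 20.5 ± 5.18 at 3 to 4, 30.3 ± 14.9 at 5 to 9 and 51.4 ± 19.4 at 10 or more (SD over 4 libraries). Nsg1, an endosomal protein of neurons named after its values were seen, went from 57.1 ± 4.24 over 91.0, 114, 124 and 182 to 201 ± 28.1 CPM. Pla2g7 and Hopx also had their lowest mean at 0 and their highest at 10 or more. Falling genes had most of their difference between 0 and 1 UMI: Nectin4 went from 63.4 ± 2.43 to 24.9 ± 4.79 CPM, Man2b1 from 227 ± 30.4 to 116 ± 10.5 and Ube2c from 106 ± 11.2 to 45.3 ± 7.59. Among classes with 3 or more UMIs, the SDs of Nectin4, Man2b1 and Ube2c overlapped.

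**Figure D4:**
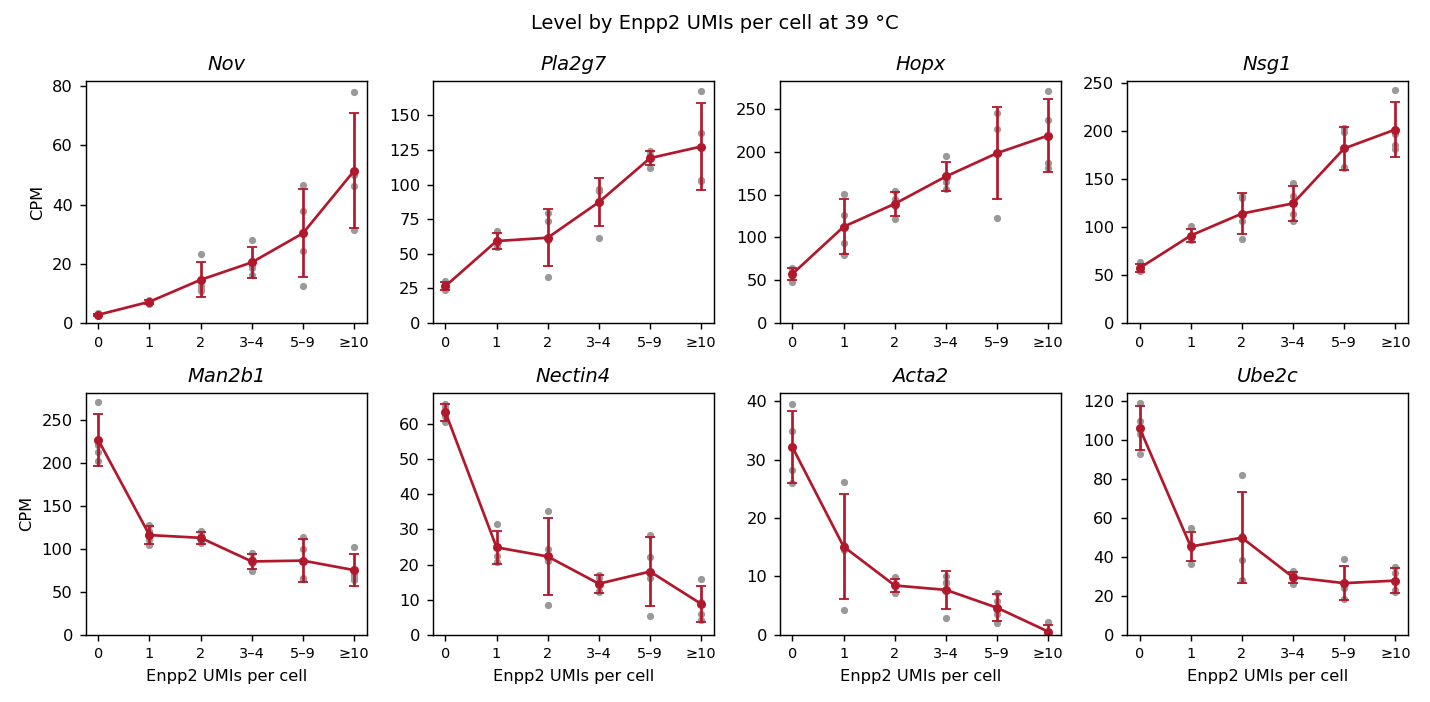
CPM of 8 genes in 39 °C cells grouped by their Enpp2 UMIs, from 0 to 10 or more. Grey points are the 4 libraries, and the line with bars gives their mean and SD; the genes of the upper row have their highest mean at 10 or more UMIs (51.4 CPM for Nov, from 2.80 at 0), while each gene of the lower row has its largest step between 0 and 1 UMI.

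The cells with Enpp2 at 37 °C gave a comparison in other libraries and in 10% serum. There, 484 cells with 1 or more Enpp2 UMIs were matched to cells with 0, and of 12200 genes 1608 were called (13.2%), 715 higher (5.86%) and 893 lower (7.32%). Leaving out replicate 1 left 594 calls, replicate 2 left 820 and replicate 4 left 924, and matching on phase left 499. Of the 12 largest rises at 39 °C, 12 had the same sign at 37 °C and 11 were called, all but Fjx1 (0.31, adjusted p = 0.22), and 9 were called with partners of the same phase. Igfbp2 was at 418 ± 107 against 139 ± 34.0 CPM (1.61, SE 0.07), Hopx at 137 ± 11.8 against 50.7 ± 11.1 (1.44, SE 0.10) and Mgp at 166 against 48.2 CPM (1.75, SE 0.10). Nov rose by 2.39 (SE 0.46), Il33 by 2.05 (SE 0.25) and Wif1 by 2.89 (SE 0.31). Nsg1 rose by 0.65 (SE 0.10). The Wnt list had 8 of 13 genes higher, 0 lower and a median of 0.94, and the Id and BMP list 6 of 12 higher, 1 lower and a median of 0.36.

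The falls were shared in part. Of the 12 largest falls 8 were called lower at 37 °C: these were cell-cycle genes and Acta2, the latter by 0.25 on the log2 scale (SE 0.07, 191 against 229 CPM). Hs3st6 (0.07, SE 0.51, adjusted p = 0.96), Krt7 (0.08, SE 0.16, 0.85), Nectin4 (-0.58, SE 0.22, 0.061) and Depdc7 (-0.36, SE 0.23, 0.36) were not called. With partners of the same phase 6 of the 12 were called lower at 37 °C, among them Nectin4 (-0.70, SE 0.21, adjusted p = 0.0447). Of the p53 targets 1 of 26 was lower and 4 were higher at 37 °C, beside 7.32 and 5.86% of all genes. Among all genes called higher at 39 °C 79.5% had the same sign at 37 °C and 32.3% were called there, and 1.36% were called in the opposite direction. Among those called lower, 64.0% had the same sign, 23.9% were called again and 4.50% were called the opposite way. Genes that were not called at 39 °C shared the sign in 56.3 and 56.7%. Vcan (0.24, SE 0.08, adjusted p = 0.0364), Celf5 (0.43, SE 0.11, 0.00254) and Samd12 (0.54, SE 0.13, 0.000863) were called higher at 37 °C, opposite to 39 °C. With partners of the same phase, Vcan was at 0.01 (adjusted p = 0.967) and Celf5 at 0.45 (adjusted p = 0.0170). Man2b1 was at 79.4 ± 14.6 against 65.0 ± 11.4 CPM at 37 °C and was not called (0.29, SE 0.11, adjusted p = 0.0506).

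**Figure D5:**
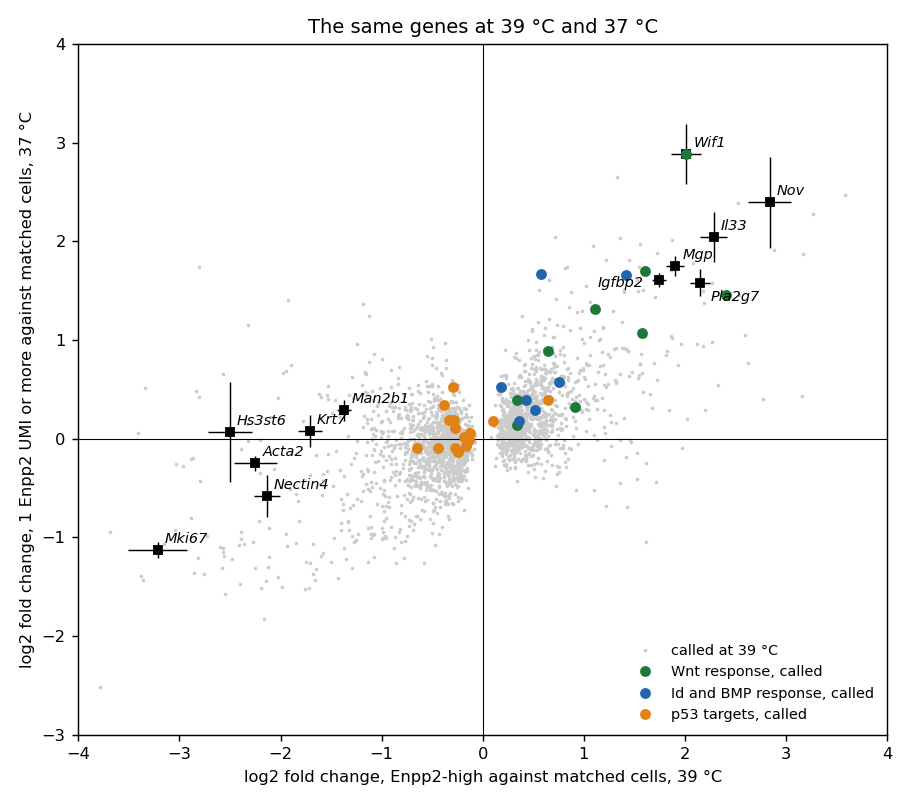
Log2 fold change of Enpp2-high against matched cells at 39 °C (x axis) and of cells with 1 Enpp2 UMI or more against matched cells at 37 °C (y axis) for genes called at 39 °C. Bars on named genes are standard errors derived from the test statistic, and coloured points are called members of 3 lists. Of 2431 genes, 13 lie outside the axes. Wnt and Id and BMP genes lie at the upper right. Nectin4, Hs3st6, Krt7 and Man2b1 lie below -1 at 39 °C and between -0.58 and 0.29 at 37 °C.

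The difference between temperatures was tested directly with 3 or more UMIs in both, in one fit over 8 libraries, where 402 of 11940 genes were called (3.37%), 188 with a higher effect at 39 °C (1.57%) and 214 with a lower one (1.79%). The effect at 39 °C was lower than that at 37 °C for Man2b1 by 1.69 on the log2 scale (SE 0.26, adjusted p = 9.3e-08), for Vcan by 1.26 (SE 0.18, 2.0e-08) and for Depdc7 by 2.41 (SE 0.63, 0.0106). For Mki67 it was lower by 2.003 (SE 0.38, 4.7e-05) and for Acta2 by 1.10 (SE 0.30, 0.013). It was also lower for Mgp, by 0.83 (SE 0.25, 0.0331), one of the 12 largest rises. It was higher for Nes, by 1.07 (SE 0.16, 4.94e-08), for Col1a2, by 0.79 (SE 0.12, 6.9e-08), and for Col1a1, by 0.47 (SE 0.11, 0.0020). For Nes this was a smaller fall at 39 °C (-0.25 in the main test), since its log2 fold change at 37 °C was -1.32 in this fit. With 1 UMI or more at 37 °C Nes stood at -0.63 (SE 0.06, adjusted p = 4.6e-18). For Nov, Il33, Pla2g7, Igfbp2, Hopx and Adh7 the difference was not called, which does not show equal effects: it was -1.17 (SE 1.28) for Nov, -0.08 (SE 0.53) for Il33, -0.66 (SE 0.37) for Pla2g7, -0.37 (SE 0.16) for Igfbp2, -0.32 (SE 0.25) for Hopx and 0.31 (SE 0.25) for Adh7. At 37 °C this fit rests on 87 Enpp2-high cells, 18 to 27 in a library, and its partners were not matched on phase.

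Enpp2-high cells also lay near each other in overall expression. With Enpp2 left out, 30 nearest neighbours were found for each cell within its library. Of the neighbours of Enpp2-high cells 37.0, 18.4, 28.0 and 18.4% were themselves Enpp2-high in replicates 1 to 4, against 11.7, 4.90, 6.78 and 3.36% of the neighbours of matched cells. In each library the share was higher for Enpp2-high than for matched cells. For cells with 1 or 2 Enpp2 UMIs it was 24.4, 10.8, 18.7 and 10.6%. These values also lay above the Enpp2-high share of all cells, 17.0, 7.51, 11.4 and 6.08%. Neighbours were not matched on phase. Il33 had a UMI in 947 of the 39 °C cells, and 198 cells were both Il33-positive and Enpp2-high. These were 26.2% of the Enpp2-high and 20.9% of the Il33-positive cells, where 11.6% of all 39 °C cells were Il33-positive and 9.30% Enpp2-high. Among matched cells with 0 Enpp2 UMIs 6.97% ± 2.39 held an Il33 UMI, against 26.3% ± 1.54 of the Enpp2-high cells. At this depth a missing UMI does not show that a gene is off.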

How the data were processed

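Droplet single-cell RNA-seq (10x Chromium, 3′ chemistry V3) had been run on 8 libraries. The authors aligned reads to mm10 with Cell Ranger 3.0.1, per the labels, and deposited raw UMI counts per gene and cell, with no normalization, for 31053 genes. The deposited libraries summed to 22988911 to 33652656 UMIs. Enpp2-high cells, their partners and the gene lists were chosen with earlier results of these data known. Each Enpp2-high cell was paired, without reuse, with a cell of its library that had 0 Enpp2 UMIs (total UMIs without Enpp2 within 0.05 on the log10 scale). Counts were summed per library and class, so the library pairs the sums by origin. Genes averaging 1 or more counts over the sums were tested with edgeR 4.0.16 (TMM, quasi-likelihood test, library as a block, Benjamini-Hochberg adjusted p under 0.05), with R 4.3.3, in a script tested on simulated data. CPM are counts scaled to the TMM-adjusted total of tested genes. Phases came from Seurat 5.3.0, with 42 of 43 S and 52 of 54 G2/M genes found. Shares were compared by exact two-sided permutation of the paired libraries. A doublet caller marked 34 of 19125 cells (0.178%), too few to have worked, so doublets were not removed. The genes named were drawn from the 12 largest rises and 12 largest falls with at least 20 CPM in the higher class and 1 sign in 4 libraries. Others were drawn from up to 4 called genes per list, from LPA genes of at least 5 CPM, and from those the text marks as chosen after their values were seen. Not every list gene that met these rules was named, among them Mmp3 and Agpat2, and Lpar4 was named below 5 CPM. Deptor, Taf2 and Samd12 were named for their position. Coordinates are from GENCODE M21 (GRCm38), which held 31011 of the genes. Alternatives covered scaling, filters, DESeq2 1.42.0, the block, matching, phase, thinning, thresholds and leaving out each library. Matching within mitochondrial tertiles, the phase match and higher UMI threshold at 37 °C, and the fit over both temperatures were added after seeing the data.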

Additional observations from a re-analysis of the deposited data

Results flagged for a closer look

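In 6 of 92 groups of 4 libraries, 1 library stood apart from the others by Dixon's criterion, which chance exceeds in about 1 of 20 groups. The log2 difference of Pla2g7 between Enpp2-high and matched cells was 1.97 in replicate 2 and 2.13 to 2.16 in the others. That of Adh7 was 1.36 in replicate 3 against 1.69 to 1.72, and that of Ankrd1 was -1.79 in replicate 4 against -0.91 to -0.74. That of Slc1a3 was 1.82 in replicate 1 against 0.52 to 0.63. The G1 share of Enpp2-high cells exceeded that of their partners by 20.5 percentage points in replicate 4 and by 11.7 to 12.4 in the others. The G2/M difference was -7.17 points in replicate 3 and -5.03 to -4.64 in the others. All 6 kept the direction of the other libraries.

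For 14 of 82 genes named, the effect of a high Enpp2 count differed between temperatures (edgeR, 39 °C minus 37 °C on the log2 scale, 3 UMIs or more in both, adjusted p in parentheses). Over all 11940 genes of that fit 3.37% were called. Many of the genes named were chosen on the same 39 °C sums, so the 2 shares cannot be compared. Partners were not matched on phase. The difference was negative for Mgp at -0.83 (0.0331), Mki67 at -2.003 (4.72e-05), Cenpf at -1.60 (3.95e-05), Ube2c at -0.63 (0.0329) and Acta2 at -1.10 (0.0128). It was also negative for Depdc7 at -2.41 (0.0106), Vcan at -1.26 (1.96e-08), Celf5 at -1.06 (0.00579), Samd12 at -1.27 (0.00276), Man2b1 at -1.69 (9.25e-08) and Malat1 at -0.80 (1.91e-09). It was positive for Nes at 1.07 (4.94e-08), Col1a1 at 0.47 (0.00200) and Col1a2 at 0.79 (6.92e-08). Wif1 and Grem1 had no counts in 1 class and were not read in this fit.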

How the results depend on the processing

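The 2454 genes called at 39 °C became 805 with DESeq2 (315 higher, 490 lower), 1142 with cells thinned to 5000 UMIs, 1606 with 5 Enpp2 UMIs or more and 140 with the stricter cutoffs on p and size. Without the replicate block, that is without the paired library term, 1784 were called. Scaling, count filters, phase matching, G1 cells alone, the gene limit, doublet scores and mitochondrial tertiles gave 2249 to 2437 calls, and no depth match 3668. Leaving out 1 library gave 1284 to 2207 calls. The Tubb3 call was also lost with both other scalings (adjusted p = 0.0518 and 0.0548) and filterByExpr (0.0532), and kept with no filter on low counts. In cells with 1 or 2 Enpp2 UMIs, 2007 calls became 1192 without the replicate block and 858 to 1395 without 1 library. At 37 °C, 1608 became 1079 without the replicate block, 1045 at 2 UMIs or more, 528 at 3 or more, 499 with phase matching and 594 to 1181 without 1 library. The cause of these changes was not tested, but thinning, fewer libraries and higher thresholds leave fewer counts to test.

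Over 82 genes named, 1411 of the alternative values kept direction and call, 135 kept the direction but lost the call and 7 changed sign. Calls lost with DESeq2 included Slurp1, Rnf43, Grem1, Id4, Id2, Pmaip1, Gadd45a, Lpar1, Nes, Tubb3, Map2, Tmem119, Slc1a3, Cebpa and Aldh1a1, and those lost in G1 cells alone included Mki67, Birc5, Cenpf, Hmmr, Cenpm and Pclaf. Lpar6, not called at -0.01, was 0.00305 with another filter, 0.0495 with DESeq2, 0.29 after thinning, 0.30 at 5 UMIs or more, 0.15 without the highest doublet scores and -0.24 to 0.33 without 1 library. Lpar2, not called, was -0.0200 with mitochondrial tertiles. Genes per cell, 8 more in Enpp2-high cells with matching, differed by -68.3 without it and by -3.67 to 20 without 1 library. The phase differences kept their direction throughout, and 4 libraries limit the exact test to 0.13.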
